A study of Mus musculus with 2 samples.

Results

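The genes encoding the subunits of the NMDA receptor were followed by symbol through 2 sections of mouse brain. They were Grin1, Grin2a, Grin2b, Grin2c, Grin2d and Grin3a, 6 of the 32285 genes counted in each section. NMDA receptors are glutamate-gated ion channels that open when glutamate is bound and the membrane is already depolarised, and the calcium they admit starts the lasting changes of synaptic strength on which spatial memory in the hippocampus depends. Every receptor carries the obligatory subunit made from Grin1, joined by subunits of the glutamate-binding GluN2 kind (Grin2a, Grin2b, Grin2c and Grin2d) or by a glycine-binding GluN3 subunit such as that of Grin3a. The partner subunit sets how long the channel stays open, how strongly magnesium blocks it and which signalling proteins it holds, so the mix of transcripts differs between neuron types.

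Each section was a coronal slice of the brain with the dorsal hippocampus of both sides, taken from 1 male mouse (n = 1 and n = 1) and placed on a Visium slide, a slide printed with a grid of spots that each mark the RNA they capture with their own barcode. The mouse of the group Trained had learned active place avoidance, in which an animal on a rotating arena keeps out of a shock zone, and that of the group Untrained had walked the arena while the shock was off. Both carried the genotype ArcCreERT2::eYFPflx, in which the promoter of the activity gene Arc drives an inducible Cre, both were aged 3 to 4 months, and both brains were taken an hour after a retention test. The comparison addressed where memory-related genes are expressed after recall of the task. Because each group was 1 section of 1 mouse, no difference between the sections had a replicate check, and the behaviour cannot be told apart from the animal, the plane of the section and the library. Whether the deposited labels match those in the study's text was not settled, so directions are given by label, and pairs of values give the section labelled trained first and the section labelled untrained second.

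All members lie on the minus strand of GRCm38/mm10. Grin1 (ENSMUSG00000026959) lies at chr2:25291181-25319187 and its longest annotated transcript has 21 exons and 4276 bases. Grin2a (ENSMUSG00000059003) lies at chr16:9567898-9995560 with 14 exons and 14634 bases, and Grin2b (ENSMUSG00000030209) at chr6:135713233-136173511 with 14 exons and 24060 bases. Grin2c (ENSMUSG00000020734) lies at chr11:115249169-115267243 with 15 exons and 4895 bases, Grin2d (ENSMUSG00000002771) at chr7:45831883-45878378 with 12 exons and 5431 bases, and Grin3a (ENSMUSG00000039579) at chr4:49661611-49845744 with 9 exons and 7491 bases. Antisense genes overlapped exons of 3 members and held few unique molecular identifiers (UMIs, each standing for 1 captured molecule): Grin1os over Grin1 had 6 and 4, Gm26653 over Grin2b had 18 and 16, and Gm45441 over Grin2d had 81 and 101.

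Promoter windows of RefSeq on GRCm38.p6 were matched for 3 of the 6 members, Grin1, Grin2c and Grin2d. The 250 bases before the start of Grin1 and Grin2c are shown because these genes were the most widely captured subunit and the one that peaked in the sensory relay thalamus, with each CG pair, the site of DNA methylation, in capitals. Grin1 at chr2:25319188-25319437 is followed by Grin2c at chr11:115267244-115267493, both read 5′ to 3′ on the minus strand.
Grin1: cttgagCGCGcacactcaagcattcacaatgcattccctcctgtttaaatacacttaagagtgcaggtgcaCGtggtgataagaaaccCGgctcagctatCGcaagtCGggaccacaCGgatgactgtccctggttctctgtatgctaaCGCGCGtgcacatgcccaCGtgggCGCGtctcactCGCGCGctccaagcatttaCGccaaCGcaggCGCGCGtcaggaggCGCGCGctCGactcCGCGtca
Grin2c: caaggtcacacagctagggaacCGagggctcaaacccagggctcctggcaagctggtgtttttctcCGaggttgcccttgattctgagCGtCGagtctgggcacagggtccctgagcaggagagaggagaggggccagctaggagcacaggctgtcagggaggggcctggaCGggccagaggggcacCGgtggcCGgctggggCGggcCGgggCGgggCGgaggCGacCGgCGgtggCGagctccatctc
The Grin1 window held 27 CG pairs, more than 91.4% of 32851 promoter windows of the same length, whose median was 6. The Grin2c window held 15 CG pairs and had 68.8% G or C, against 58.8% for Grin1. The letters GGGCGG, the GC box, occurred 3 times on either strand before Grin2c and not before Grin1, and 32.7% of all windows held at least 1. The RefSeq window of Grin2d starts from another transcript start and lies inside the gene as placed above, so it is not described.

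Depth differed between the sections. There were 4152 spots, 29515831 UMIs and a median of 5950.5 UMIs per spot under the label trained, and 3738 spots, 59029131 UMIs and a median of 13766.5 under the label untrained. A spot covers several cells, so a level describes a place and not a cell, and in such a spot fewer cells of a type and less RNA per cell cannot be told apart. Spots were divided into regions by joint clustering of both sections on 939 genes that included no member. Levels are UMIs per 1000000 UMIs of a region (CPM), which count molecules and need no division by length. Their 95% intervals cover counting error only. Whether transcripts of different length were captured with different success was not tested.

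The hippocampus comprised 566 and 544 spots. The CA1 pyramidal layer (56 and 55 spots) was led by Lefty1, Spink8 and Fibcd1, and all 7 of its listed markers were higher there than elsewhere in both sections. The CA3 pyramidal layer (80 and 125 spots) was led by Cabp7 and Homer3 together with the CA2 marker Rgs14, with 8 of 8 markers higher. The granule layer of the dentate gyrus (DG, 156 and 165 spots) was led by Dsp, C1ql2 and Lct, with 7 of 7 markers higher. The remaining hippocampal spots (274 and 199), between and around these layers, were led by Spink8 and by Ddn, whose RNA lies in dendrites, and are called the Ddn/Spink8 field. Outside the hippocampus, regions were named by the marker list that led them or called by 2 of their leading genes. The Six3/Pvalb strip and the Ccn2/Cplx3 band were called by their genes although a list led them, that of reticular and pallidal GABA neurons and that of the deep neocortex. Every listed marker of the named regions was higher in its own region in both sections, except in the midline thalamus, with 5 of 6. The sections did not hold the same tissue there: striatum covered 214 and 32 spots, and an area led by Cartpt and Vgll3 covered 12 and 191. That area was left out of the order of regions, which used 17 regions of at least 25 spots in each section.

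Over a whole section the members together reached 406 and 481 CPM. Grin1 was the most abundant at 191 and 237 CPM, followed by Grin2a at 102 and 109 and Grin2b at 40.5 and 57.5. Grin2c stood at 35.0 and 34.9 CPM, Grin3a at 22.7 and 28.9 and Grin2d at 14.7 and 14.3. This order was the same in both sections. In the hippocampus the sum was higher, at 669 and 714 CPM, and in the CA1 layer it reached 1027 and 1180 CPM.

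**Figure D1:**
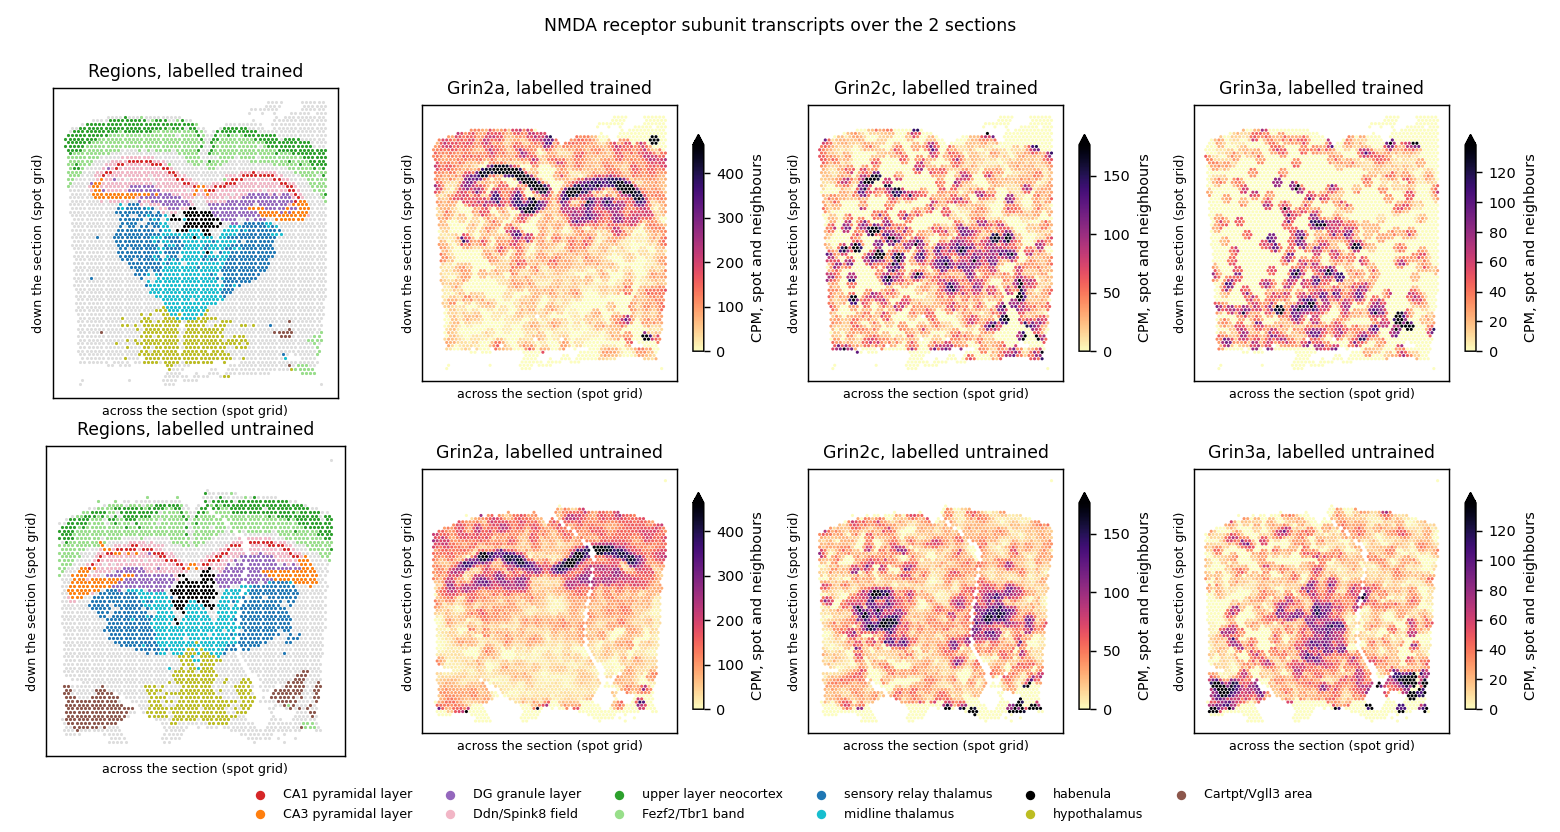
Maps of the 2 sections (upper row labelled trained, lower row labelled untrained), with spots drawn at their place on the slide grid. The left maps colour the named regions, with other spots in grey, and the others show CPM of Grin2a, Grin2c and Grin3a pooled over a spot and its neighbours. Grin2a traces the CA1 layer in both sections, Grin2c the lateral thalamus, and Grin3a the midline below the hippocampus and, under the label untrained, the Cartpt/Vgll3 area at the lower corners.

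Grin1, whose protein is part of every NMDA receptor, was captured in all regions and was highest in the CA1 layer. Its level there was 357 CPM (95% interval, 317 to 402) and 484 CPM (451 to 520). CA3 followed at 285 and 336 CPM and the upper layers of the neocortex (marked by Cux2 and Lamp5) at 253 and 316. A cortical band led by Fezf2 and Tbr1, in which 7 of 8 listed markers of the deep neocortex were higher, stood at 230 and 293 CPM, the Ddn/Spink8 field at 228 and 257, and the DG at 225 and 259. CA1, CA3 and the upper neocortex were the first 3 regions in both sections. The lowest levels were in white matter, at 86.8 and 121 CPM, and in choroid plexus, an epithelium without neurons, at 89.9 and 73.5. From the lowest to the highest of 17 regions Grin1 spanned 4.12-fold in one section and 6.59-fold in the other, and no neighbours in the order were separated beyond their counting intervals in both sections.

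Grin2a, whose subunit gives receptors with fast closing kinetics and predominates in the adult forebrain, was concentrated in the hippocampus. The CA1 layer held 497 CPM (449 to 548) and 472 CPM (439 to 507), and it stood apart from the next region, the DG, in both sections. The DG held 255 and 218 CPM, the Ddn/Spink8 field 213 and 217, and CA3 197 and 196, with overlapping intervals between neighbours. CA3 lay below the DG by a log2 ratio of −0.37 (−0.62 to −0.12) and −0.15 (−0.30 to −0.0027). CA3 in turn stood above the upper neocortex, at 138 and 155 CPM, and the upper neocortex above the Fezf2/Tbr1 band, at 106 and 125. The sensory relay thalamus held 71.0 and 86.0 CPM, the midline thalamus 66.8 and 68.7 and the striatum 78.2 and 61.9, near the cortical band led by Ccn2 and Cplx3 at 80.1 and 100.4. Grin2a was sparse in the hypothalamus (led by Oxt, Avp and Gal), with 28.4 and 28.7 CPM, and in a strip led by Six3 and Pvalb, with 24.0 and 22.2. The span from lowest to highest region was 20.7-fold and 21.3-fold, and the first 7 regions kept the same rank in both sections.

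Grin2b, whose subunit closes slowly and binds the kinase CaMKII, was also highest in CA1, at 137 CPM (112 to 165) and 185 CPM (165 to 207). This level stood above that of the next region in both sections. The other hippocampal areas lay close together, between 69.5 and 80.6 CPM in one section and between 88.5 and 90.1 CPM in the other. The sensory relay thalamus, led by Prkcd, Tnnt1 and Rora, came next at 57.5 and 80.7 CPM and stood above the upper neocortex, at 43.0 and 65.2, in both sections, beyond the intervals only under the label untrained. Under the label untrained the Cartpt/Vgll3 area held 86.5 CPM of Grin2b, a level like that of the hippocampus outside CA1.

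Grin2c, whose subunit gives receptors with weak magnesium block and is known from thalamus, cerebellum and astrocytes, had a different map. It was highest in the sensory relay thalamus, at 76.3 CPM (64.3 to 90.0) and 101 CPM (92.3 to 109), and next in the Six3/Pvalb strip, at 64.0 and 70.9. The midline thalamus, led by Gbx2, Cbln1 and Calb2, held 58.8 and 47.1 CPM. In the CA1 layer it was near the bottom, at 12.7 and 15.7 CPM on 10 and 25 UMIs, and CA3 was alike at 15.7 and 15.7. These values were near those in choroid plexus, at 20.4 and 13.1 CPM, so they were not distinguished from background. The Ddn/Spink8 field held more, 42.3 and 47.6 CPM.

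Grin2d, a subunit of very slow channels known from the diencephalon, brainstem and interneurons, was the least abundant member. Its highest levels were in the midline thalamus, at 42.4 and 27.2 CPM, the Six3/Pvalb strip, at 28.6 and 24.4, the hypothalamus, at 27.9 and 27.5, and an adjoining area led by Nts and Slc32a1, at 24.2 and 26.6. The same 4 regions were the first 4 in both sections, in different order. The whole hippocampus held only 16 and 88 UMIs of Grin2d, or 3.70 and 7.91 CPM, which was below the choroid plexus level of 17.7 CPM in the section labelled trained and near its level of 5.31 CPM in the other.

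Grin3a, whose glycine-binding subunit lowers calcium entry and can form receptors gated by glycine alone, was also highest outside the hippocampus. The habenula, led by Pou4f1, Gpr151 and Gng8, held 62.5 CPM (40.1 to 93.1) and 49.9 CPM (39.0 to 62.8), and the midline thalamus held 52.4 and 59.0. The Six3/Pvalb strip followed at 38.8 and 53.2 CPM and the hypothalamus at 41.4 and 44.5, with overlapping intervals among neighbours. The highest well-counted value was that of the Cartpt/Vgll3 area under the label untrained, 85.1 CPM (76.1 to 94.9) on 324 UMIs, and the other section held 2 UMIs there, too few to compare. The 3 hippocampal cell layers held between 6.48 and 16.6 CPM in the 2 sections and the Ddn/Spink8 field 20.1 and 17.1, beside 9.53 and 9.80 in choroid plexus.

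**Figure D2:**
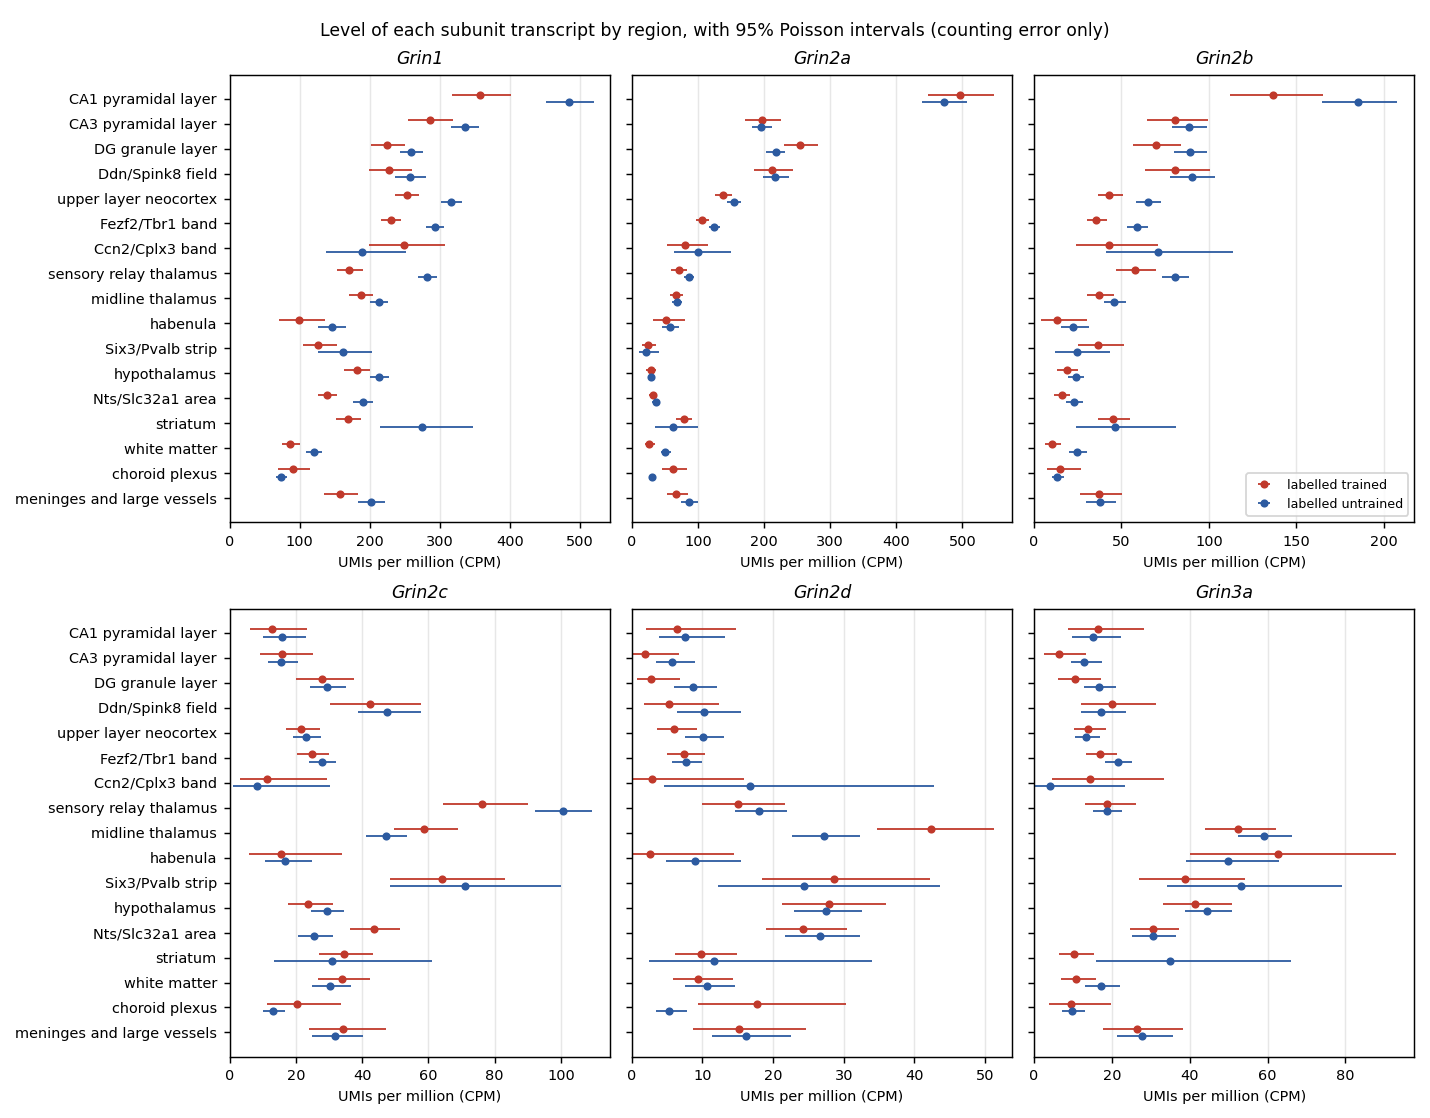
Level of each member in 17 regions, in CPM on a linear axis that differs between panels. Points are pooled spots of the section labelled trained (red) or untrained (blue) and bars are 95% Poisson intervals for counting error. Grin1, Grin2a and Grin2b peak in the CA1 layer, Grin2c in the sensory relay thalamus, and Grin2d and Grin3a in medial and lower regions.

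The regional profiles of the 2 sections resembled each other more for Grin1, Grin2a, Grin2b and Grin2c than for Grin2d and Grin3a. Across the 17 regions, Pearson's r between the sections was 0.89 for Grin1, 0.95 for Grin2a, 0.92 for Grin2b, 0.93 for Grin2c, 0.69 for Grin2d and 0.74 for Grin3a. Within a section, Grin2a and Grin2b varied together over the regions (r = 0.83 and 0.92), and so did Grin1 and Grin2b (0.86 and 0.87). Grin2a and Grin2d ran in opposite directions (−0.61 and −0.52). These values describe regions that share a library and its depth. Spatial clustering as scored by the authors' deposited Moran's I, which is higher where neighbouring spots share a level, ordered Grin2a first among the members in both sections, at 0.215 and 0.334, ranked 463 of 20513 and 244 of 21498 genes listed. Grin1 had 0.106 and 0.210, and the other 4 members ranged from 0.032 to 0.069 in one section and from 0.065 to 0.180 in the other.

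For each member, the genes with the most similar regional profile were taken by the lower of its correlations in the 2 sections, over 17 regions and 8411 genes. For Grin1 these were Frrs1l (0.94), an assembly factor of AMPA receptors, the calmodulin gene Calm2 (0.93) and Actr3b (0.91). For Grin2a they were the transcription factor gene Zbtb18 (0.95), Mmd (0.93) and the diacylglycerol kinase gene Dgkz (0.92). For Grin2b they were Nell2 (0.93), the calcium pump gene Atp2b1 (0.91) and the RNA-binding protein gene Celf2 (0.89). Likeness was weaker for Grin2c, with Arhgap5 (0.85), Fam20c (0.83) and Acsl3 (0.80), for Grin2d, with Ass1 (0.82), Gpld1 (0.78) and Itih3 (0.78), and for Grin3a, with Rit2 (0.81), Aldh5a1 (0.78) and Cbln1 (0.78).

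The mix of subunits was described by shares of the members' UMIs, which do not depend on the depth of a section. In the hippocampus Grin1 made up 39.6% and 43.9% of them, Grin2a 41.2% and 34.6%, and Grin2b 13.0% and 14.4%. In the hypothalamus Grin1 made up 56.4% and 58.2%, and Grin2a 8.83% and 7.81%. UMIs of Grin1 per UMI of the 4 GluN2 genes were few in CA1, at 0.55 (0.47 to 0.63) and 0.71 (0.65 to 0.78), and most in the hypothalamus, at 1.84 and 1.96. The ratio was 0.67 and 0.71 in the Ddn/Spink8 field and 0.63 and 0.75 in the DG, and the intervals of both areas overlapped those of CA1. It was 0.97 and 1.10 in CA3, and 1.21 and 1.25 in the upper neocortex.

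The share of Grin2a among Grin2a and Grin2b, the usual measure of the forebrain balance, was 76.0% (73.8 to 78.1) and 70.6% (69.2 to 72.1) in the hippocampus. CA1 had 78.4% and 71.8%, the DG 78.6% and 70.9%, CA3 71.0% and 68.9%, and the Ddn/Spink8 field 72.6% and 70.7%. The upper neocortex lay in the range of the hippocampal layers at 76.2% and 70.3%. The sensory relay thalamus was nearer to an even balance, at 55.2% (48.7 to 61.6) and 51.6% (48.3 to 54.9), with intervals below those of the hippocampus in both sections. The Cartpt/Vgll3 area under the label untrained had 44.8% (40.8 to 48.9), with more Grin2b than Grin2a. The share was higher under the label trained in 15 of 17 regions, and its intervals were apart in 2 of them, the DG and the Fezf2/Tbr1 band. UMIs of Grin1 per UMI of the GluN2 genes were lower under the label trained in 15 of 17 regions, with intervals apart in 4, which were CA1, the Nts/Slc32a1 area, the sensory relay thalamus and the striatum. Over whole sections the share was 71.5% and 65.4% and the ratio 0.996 and 1.10. Regions of a section share an animal and a library, so these counts of regions are not repeated observations. How often other gene pairs differ in this way was not tested.

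Shares of Grin2c and Grin3a were larger in the thalamus than in the hippocampus. Grin2c supplied 34.7% (30.1 to 39.6) and 35.2% (32.9 to 37.7) of the GluN2 UMIs of the sensory relay thalamus, against 1.94% and 2.31% in CA1, 7.84% and 8.54% in the DG and 12.4% and 13.0% in the Ddn/Spink8 field. The largest shares of Grin2c were 42.2% in white matter (26.0% in the other section) and 50% in the Six3/Pvalb strip (41.8% in the section labelled trained), and the striatum had 20.6% and 20.5%. Grin3a supplied 25.5% and 16.6% of all member UMIs in the habenula, 11.8% and 12.8% in the midline thalamus, and 1.90% and 2.15% in the hippocampus. Under the label untrained it supplied 16.4% in the Cartpt/Vgll3 area.

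**Figure D3:**
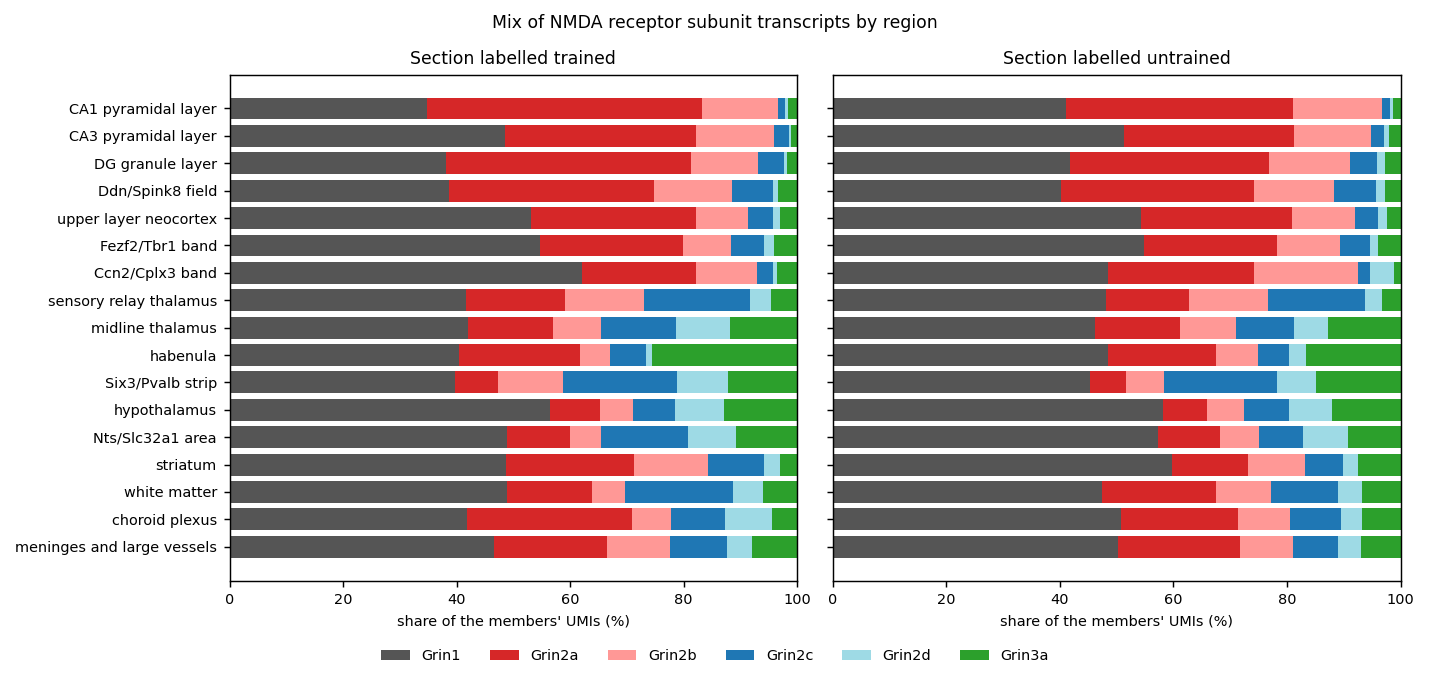
Share of each member among the UMIs of all 6 members in 17 regions, in percent, for the section labelled trained (left) and untrained (right). The bars of the hippocampal layers are filled mostly by Grin1, Grin2a and Grin2b, and the shares of Grin2c, Grin2d and Grin3a widen from the sensory relay thalamus downwards.

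Within the hippocampus, the CA1 layer was set against the other layers in each section, and a difference was counted when it passed 1.5-fold in the same direction in both. From CA1 to the DG, all 3 members with enough UMIs (at least 100 in each section) were higher in CA1: Grin1 by 0.67 and 0.90 on the log2 scale, Grin2a by 0.96 and 1.12, and Grin2b by 0.98 and 1.06. Of 4290 genes compared, 16.5% passed in either direction and 9.39% were higher in CA1. From CA1 to CA3, Grin2a (1.33 and 1.27) and Grin2b (0.76 and 1.06) passed and Grin1 (0.33 and 0.53) did not, beside 7.72% of 3484 genes higher in CA1. From CA1 to the Ddn/Spink8 field all 3 passed, by 0.65 and 0.91 for Grin1, 1.22 and 1.12 for Grin2a and 0.76 and 1.04 for Grin2b, beside 30.9% of 2939 genes. None of the members with enough UMIs passed between CA3 and the DG, where 15.1% of 4598 genes did, or between the Ddn/Spink8 field and either the DG (21% of 4152 genes) or CA3 (23.6% of 3324 genes). By this measure CA1 carried more of the 3 main subunits than every other hippocampal area, apart from Grin1 in CA3. Grin2c, below the minimum in these contrasts, ran the other way, with CA1 over the field at −1.69 and −1.58, CA3 over the field at −1.40 and −1.60, CA3 over the DG at −0.80 and −0.90 and the DG over the field at −0.61 and −0.69. For the last 2 of these the interval in the section labelled trained held 0. With regions drawn from marker scores, Grin1 from CA1 to the DG was 0.47 and 0.48 and no longer past 1.5-fold in either section. The CA1 spots were also the deepest of the hippocampus, with medians of 13230.5 and 23953 UMIs against 7773 and 21162 in the DG and 2704 and 9975 in the field, and the part of depth in the contrasts was not tested. Mitochondrially encoded genes took 5.18% and 9.17% of the UMIs in CA1 and 7.61% and 13.7% in CA3. They took 10.3% and 15.5% in the DG and 23.5% and 26.6% in the field. Layer contrasts without these genes were not computed, so their part in the contrasts was not tested.

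Distance from the cell layers gave a further view of the main subunits. In the section labelled trained Grin2a had 293 CPM in the cell layers, 243 one grid step away and 116 at 2 or more steps, on 292, 189 and 85 spots. In the section labelled untrained it had 255, 230 and 133 CPM on 345, 162 and 37 spots. Grin1 declined in the same way, from 275 over 247 to 164 CPM and from 328 over 263 to 222 CPM. Ddn, whose RNA is carried into dendrites, ran the other way, from 486 to 889 CPM and from 566 to 859 CPM, while Slc17a7, the vesicular glutamate transporter of the pyramidal and granule cells, went from 750 to 289 CPM and from 910 to 366 CPM. Between the cell layers and the first step, Grin1 and Grin2a lost less of their level than Slc17a7 in both sections.

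At the same distances Grin2b had 88.8, 84.8 and 66.7 CPM in the first section and 106, 92.4 and 75.3 CPM in the second. The depth of the spots declined alongside, with medians of 9255.5, 3066 and 2098 UMIs and of 21556, 10237.5 and 6598 UMIs, and its part in these levels was not tested.

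Grin2c ran against Grin2a and Grin2b, with 20.4, 37.5 and 57.8 CPM at 0, 1 and 2 or more steps under the label trained, on 69, 27 and 13 UMIs. Under the label untrained the values were 21.9, 48.1 and 44.5 CPM on 196, 90 and 13 UMIs. It was lowest in the cell layers in both sections. So was the astrocyte gene Aldoc, which went from 412 over 882 to 1289 CPM and from 610 over 992 to 1211 CPM. The summed level of 7 astrocyte markers, none of which was at 0, ranged over the hippocampal layers from 1049 to 3866 CPM and from 1129 to 3227 CPM, lowest in CA1 and highest in the Ddn/Spink8 field in both. Across the 17 regions Grin2c and this sum had r = 0.68 and 0.62. Grin2d had 0.35 and 0.73 with it and Grin3a 0.33 and 0.47, while Grin1, Grin2a and Grin2b had negative values. With the endothelial markers Grin2c had 0.50 and 0.44. The part of astrocytes in the level of Grin2c was not tested.

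**Figure D4:**
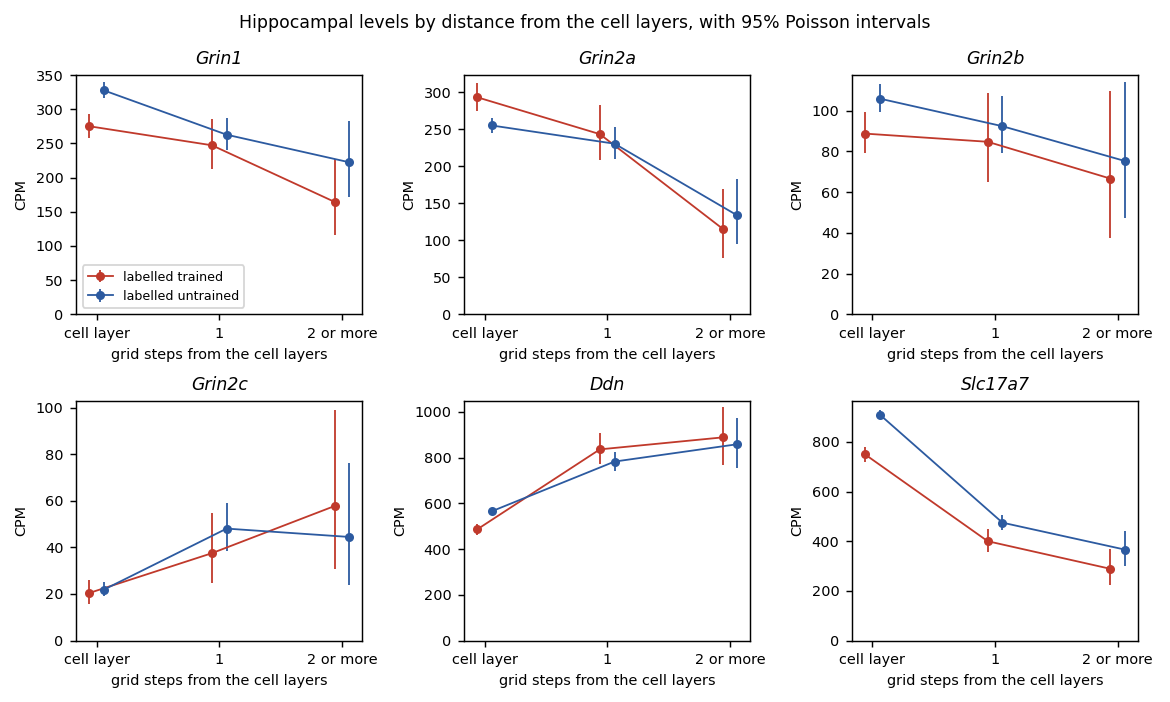
Level in CPM against the distance from the hippocampal cell layers in grid steps, for 4 members, the dendritic transcript Ddn and the glutamatergic marker Slc17a7, in the section labelled trained (red) and untrained (blue). Bars are 95% Poisson intervals. Grin1, Grin2a and Slc17a7 decline with distance in both sections, and Ddn and Grin2c are lowest in the cell layers.

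The share of hippocampal spots with at least 1 UMI followed the depth. As deposited, Grin1 was found in 64.1% and 94.3% of hippocampal spots, Grin2a in 62.5% and 84.9%, and Grin2b in 35.7% and 69.3%. Once each spot was thinned to 1000 UMIs, leaving out 1 and 0 spots, the shares over all possible draws were 20.1% and 24.7% for Grin1, 20.3% and 19.3% for Grin2a, and 6.69% and 8.58% for Grin2b. For these 3 members the sections thus differed less at equal depth. For Grin2c the shares were 3.86% and 3.33%, for Grin3a 1.84% and 1.59%, and for Grin2d 0.33% and 0.87%. In choroid plexus, with medians of 8613 and 24194 UMIs per spot against 5374.5 and 16886 in the hippocampus, the thinned shares were 9.85% and 8.43% for Grin1 and 6.03% and 4.05% for Grin2a. In white matter they were 7.64% and 10.7% for Grin1, 2.26% and 4.33% for Grin2a, 3.0% and 3.28% for Grin2c, 0.88% and 0.81% for Grin2d and 0.93% and 1.72% for Grin3a. In choroid plexus the sparse members had 2.48% and 1.58% (Grin2c), 2.11% and 0.59% (Grin2d) and 1.16% and 1.01% (Grin3a). The hippocampal shares of Grin2c and Grin3a were thus above those of choroid plexus in both sections, by amounts that were not set against counting error, and that of Grin2d was below it under the label trained. Beside white matter both were higher under the label trained. Under the label untrained Grin3a was lower than in white matter (1.59% against 1.72%) and Grin2c about level (3.33% against 3.28%).

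In the comparison of the sections, the hippocampal level of none of the 4 members with at least 400 UMIs over both sections differed by 1.5-fold. Among the 5737 genes that reached this minimum, 12.7% differed by 1.5-fold, 8.56% higher and 4.13% lower under the label trained, and the median log2 ratio was 0.07. Grin1 had 265 CPM against 314 CPM, which gave −0.25 on the log2 scale (95% interval, −0.34 to −0.15). Grin2a had 275 and 247 CPM, a ratio of 0.15 (0.06 to 0.25), which was 0.30 on the left side alone and 0.017 in a random draw of 1000 UMIs per spot. Grin2b had 87.0 and 103 CPM, a ratio of −0.24 (−0.41 to −0.07), and Grin2c had 25.2 and 26.9 CPM, a ratio of −0.09 (−0.42 to 0.23). These ratios stood at the percentiles 19.1, 59.2, 19.3 and 32.9 of all genes compared. Grin2d and Grin3a were below the minimum. Grin2d, with 16 and 88 UMIs or 3.70 and 7.91 CPM, had a ratio of −1.06 (−1.97 to −0.32). In a random draw of 1000 UMIs per spot, which keeps few Grin2d UMIs, it was −0.055. Over all draws Grin2d was found in 0.33% and 0.87% of hippocampal spots. The value of that draw is therefore not read as an effect of depth. Grin3a, with 55 and 171 UMIs, had −0.26 (−0.74 to 0.17). Mitochondrially encoded genes took 11.6% and 16.2% of the hippocampal UMIs. The summed glutamatergic markers (2 genes, both lower) had a log2 ratio of −0.31 and 5 endothelial markers −0.46. The 7 astrocyte markers had 0.03, with an interval that held 0. Markers of GABA interneurons had 0.11, of oligodendrocyte precursors −0.21 and of microglia −0.12, with intervals that excluded 0. The part of these in the ratios of the members was not tested.

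By layer, Grin1 was lower under the label trained in CA1 (−0.44), CA3 (−0.23) and the DG (−0.20), and its value in the Ddn/Spink8 field was −0.18 with an interval that held 0. Grin2a had 0.08 in CA1, 0.01 in CA3, −0.03 in the field and 0.23 (0.05 to 0.40) in the DG, the one layer in which its interval excluded 0. Grin2b had −0.43 in CA1 and −0.35 in the DG. None of these values passed 1.5-fold, against 15.5% of the genes compared in CA1, 15.3% in CA3, 17.7% in the DG and 11.7% in the field.

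Outside the hippocampus, 4 values with at least 400 UMIs over both sections passed 1.5-fold, all lower under the label trained. They were Grin1 in the sensory relay thalamus, with 171 and 282 CPM and −0.72 on the log2 scale (−0.90 to −0.55), Grin2b in the Fezf2/Tbr1 band, with 35.6 and 59.0 CPM and −0.73 (−1.01 to −0.46), Grin2b in the upper neocortex, with 43.0 and 65.2 CPM and −0.60 (−0.89 to −0.32), and Grin1 in the striatum, at −0.71 with only 32 spots under the label untrained. All 4 stayed below 0 under the alternatives run but none stayed past 1.5-fold under each of them, with the smallest differences −0.24 for Grin2b in the upper neocortex on the left side, −0.53 for Grin2b in the Fezf2/Tbr1 band on the right side, −0.53 for Grin1 in the relay thalamus with regions from marker scores, and −0.26 for Grin1 in the striatum with spots thinned to 1000 UMIs. The thinned value is a random draw, and over all draws Grin1 was found in 15.4% and 26.8% of striatal spots at 1000 UMIs. Of all genes compared, 6.25% were lower by 1.5-fold in the relay thalamus, 2.34% in the Fezf2/Tbr1 band, 2.48% in the upper neocortex and 6.62% in the striatum. No member with enough UMIs passed in the midline thalamus, hypothalamus, Nts/Slc32a1 area, white matter, choroid plexus or meninges, where 12.8%, 14.6%, 13.2%, 11%, 21% and 13.2% of genes passed in either direction, or in the Cartpt/Vgll3 area, where 33.8% did and the section labelled trained held 12 spots and 5 UMIs of Grin1. Over whole sections and over the rest of the section outside the hippocampus no member passed, beside 12.8% of 11460 and 12.9% of 11111 genes.

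**Figure D5:**
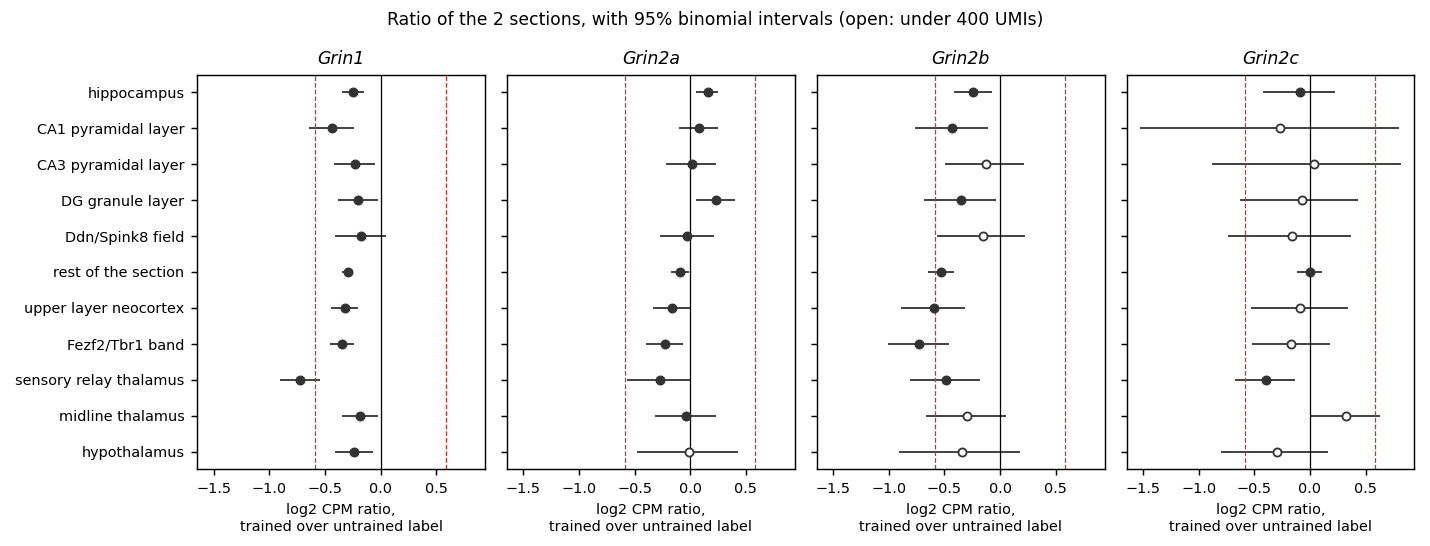
Log2 ratio of CPM, label trained over label untrained, for Grin1, Grin2a, Grin2b and Grin2c, by region. Filled points reach 400 UMIs over both sections, bars are 95% binomial intervals for counting error and dashed lines mark 1.5-fold. All hippocampal points that are filled lie within the dashed lines, and Grin1 in the sensory relay thalamus and Grin2b in both cortical areas lie beyond the lower one.

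The 2 sides of a section offered the only repeated measurement within an animal. The hippocampal levels of Grin1 were 271 CPM on the left and 262 on the right in the first section, and 309 and 317 in the second, with intervals of the log2 ratio that held 0 in both. Grin2a had 286 and 271 CPM in the first section and 232 and 256 in the second, where the left side was lower by a log2 ratio of −0.14 (−0.25 to −0.02). Grin2c was higher on the left in the section labelled trained, at 36.2 and 20.9 CPM, a log2 ratio of 0.80 (0.21 to 1.37). Grin2b had log2 ratios of left over right of −0.13 and −0.16, with intervals that held 0. Beside the hippocampal ratios between the sections, those between the sides were smaller in both sections for Grin1 and Grin2b, larger in both for Grin2c (0.80 and 0.25), and for Grin2a were 0.08 and −0.14 against 0.15.

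The receptor works within a complex, and genes of its surroundings were compared in the hippocampus by lists. Of 46 genes listed, 35 had enough UMIs, and 1 was higher and 3 lower by 1.5-fold under the label trained, with a median log2 ratio of −0.01 beside 0.07 for all genes. Beside the 8.56% higher and 4.13% lower among all genes compared, these counts do not set the listed genes apart, and the genes past the fold are given as values. Among 6 of 9 auxiliary proteins and kinases of the receptor, 1 was lower: the tyrosine kinase gene Src, with 119 and 790 UMIs, or 27.5 and 71.0 CPM, which is −1.36 on the log2 scale. The 4 MAGUK scaffolds, Dlg1 to Dlg4, which anchor the receptor at the synapse, all stayed within 1.5-fold, and Dlg4 had −0.37. Of 10 partners of these scaffolds, Shank3 was higher (40.9 and 23.4 CPM, log2 ratio 0.81) and Dlgap3 lower (92.7 and 162 CPM, −0.80). Of 12 genes of calcium signalling downstream of the receptor, Camk2b, a CaMKII subunit, was lower (494 and 852 CPM, −0.78), while Camk2a, the other main one, had 612 and 672 CPM and −0.14. Of the 8 genes for synthesis, breakdown and transport of the co-agonists D-serine and glycine, 3 had enough UMIs and none passed. The 4 members compared had a median of −0.17, with 1 of them above 0.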

How the data were processed

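UMI counts per spot and gene were taken from the matrices deposited by the authors, who, per the submitters' processing notes, had used Space Ranger 2.0.0 on mm10. The deposited tables also held the authors' score of spatial clustering (Moran's I), from which no p-value was used. Gene positions came from GENCODE vM21 and promoters from RefSeq, both on GRCm38. The members and all lists were chosen with earlier results of these data known.

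Spots under 500 UMIs (194 and 114) were left out of regions. Counts were scaled to 10000 per spot, log-transformed, scaled within a section, reduced to 30 principal components and clustered with 15 neighbours by the Leiden method (resolution 1.5, seed 7) into 20 clusters, without the members and the listed receptor genes. Clusters were named by marker lists or by 2 leading genes. The outline of the hippocampus and the naming rule were set with the maps in view. No doublet caller was run, and the 3448 barcodes that the sections share are positions of the slide's fixed grid.

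UMIs of a region were pooled within a section and scaled to CPM. Log2 ratios used a pseudocount of 0.5 UMI and were compared from 400 UMIs over both sections, or 100 in each section for layers. Intervals were exact Poisson, Clopper-Pearson and conditional binomial at 95% and cover counting error only. With 1 section a group, spots were not replicates, so there was no test, p-value or standard error. Named genes were all members, the 3 most similar genes of each and listed genes past 1.5-fold. Dlg4, Camk2a, Ddn, Slc17a7 and Aldoc fall outside this rule and were chosen after their values were seen. Alternatives changed scaling (edgeR 4.0.16 for TMM factors), weighting, depth, side, pseudocount, regions and thresholds. Steps were tested on simulated data. Tools were Python 3.11.15, numpy 2.4.6, pandas 2.3.3, scipy 1.17.1, scikit-learn 1.9.0, scanpy 1.11.5, leidenalg 0.10.2, igraph 0.11.9, matplotlib 3.10.9 and R 4.3.3.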

Additional observations from a re-analysis of the deposited data

Results flagged for a closer look

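Grin2a had a log2 ratio, label trained over label untrained, of 0.15 in the hippocampus and of −0.09 in the rest of the section, with intervals for counting error on opposite sides of 0 (0.06 to 0.25, and −0.17 to −0.01). With 1 section a group the difference between the hippocampus and the rest was not tested.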

How the results depend on the processing

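No paired analysis was possible because the 2 groups share only 1 replicate number, and with 1 section a group no replicate could be left out. Neither the ratios between sections past 1.5-fold nor the contrasts of CA1 over DG changed direction. Of 36 alternative values of the 4 ratios past 1.5-fold, 29 stayed past it. Those beyond their counting interval were, for Grin2b, −0.92 (thinned), −0.24 (left side) and −0.96 (right side) in the upper neocortex and −1.11 (thinned) and −1.12 (left side) in the Fezf2/Tbr1 band, and, for Grin1, −0.53 (marker scores) in the relay thalamus and −0.26 (thinned) in the striatum. The thinned ratios are each a random draw. Over all draws at 1000 UMIs, Grin2b was found in 4.15% and 6.19% of spots in the upper neocortex and in 3.47% and 5.41% in the Fezf2/Tbr1 band. Grin1 was found in 15.4% and 26.8% of spots in the striatum. Of 36 hippocampal log2 ratios under alternatives for the 4 members with enough UMIs, 33 kept their sign and 0 passed 1.5-fold. Ratios that moved by more than their counting interval were, with each spot weighted equally, Grin1 (−0.35) and Grin3a (0.20, against −0.26), with spots thinned to 1000 UMIs in a random draw, Grin2a (0.017) and Grin2d (−0.055, against −1.06), and on the left side alone, Grin2a (0.30) and Grin2c (0.28, against −0.09). That draw keeps few Grin2d UMIs, and over all draws Grin2d was found in 0.33% and 0.87% of hippocampal spots. Mean levels of both sections in the highest region moved with regions from marker scores to 344 CPM for Grin1, 375 for Grin2a and 131 for Grin2b in CA1 (from 421, 484 and 161), to 85.4 for Grin2c in the relay thalamus (from 88.5) and to 38.8 for Grin2d in the midline thalamus (from 34.8). On the left side they were 451 for Grin1, 492 for Grin2a and 33.3 for Grin2d, whose region then ranked 2nd, and on the right side 35.9 for Grin2d. The habenula ranked 2nd for Grin3a with regions from marker scores (49.1 CPM) and on the right side (51.5 CPM). With regions from marker scores the contrast of CA1 over DG was 0.47 and 0.48 for Grin1, 0.62 for Grin2b under the label untrained and 0.67 for Grin2a in both, and on the left side 0.93 for Grin2a under the label untrained. Genes past the fold in the hippocampus numbered 728, and 1613 with a minimum of 100 UMIs, 6094 with none and 98 at 2-fold. Thinned to 3000 UMIs, which left out 160 of 566 and 4 of 544 hippocampal spots, shares of spots were 51.0% and 56.5% for Grin1 and 51.2% and 45.6% for Grin2a. The causes were not tested. All 24 values of the mix and all 6 of distance stayed within their intervals. In the hippocampus Grin2d and Grin3a had too few UMIs for a comparison of the sections.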
